A study of Macaca fascicularis with 48 samples.

Results

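The genes described here encode carriers that move organic cations, organic anions and bile acids across cell membranes, and they were taken as every row of the count table whose name begins SLC22A, SLCO, SLC10A or SLC47A followed by a digit. The rule found 36 of the 16842 genes in the table: 17 of SLC22A, 10 of SLCO, 7 of SLC10A and 2 of SLC47A. The SLC22A proteins are organic cation, carnitine and organic anion transporters, the SLCO proteins are organic anion transporting polypeptides, and the SLC10A proteins include the sodium-coupled bile acid carriers. The SLC47A proteins work in the other direction and export organic cations in exchange for protons. In the liver the hepatocyte takes bile acids and drugs from portal blood through SLC10A1 and SLCO1B1, whereas in nervous tissue members of the same families are known from the vessel wall, the meninges, glia and neurons.

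RNA came from cynomolgus monkeys (Macaca fascicularis) given GS-8873, an inhibitor of hepatitis B virus transcripts, by oral gavage at 0 mg/kg/day (control) or 6 mg/kg/day (treated) for 13 weeks. The 6 tissues were liver, spinal cord at cervical, thoracic and lumbar level, and dorsal root ganglia (DRG) at cervical and lumbar level. Each gave 4 control and 4 treated libraries, 2 male and 2 female per group, or 48 in all. The same 4 control animals gave every tissue. The treated libraries came from 6 animals, 4 of which gave liver and cord and 2 of which gave both ganglion regions. Animals are numbered by their liver and cord libraries, and treated animals 5 and 6 gave ganglia alone, so that a ganglion library's number can differ from its animal's. The animals' age was not given in the sources used here, and each library is whole tissue rather than a cell type.

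Libraries held 35453786 to 53480762 counts. Levels below are CPM, the count of a gene scaled to the library's total, with TMM scaling between libraries, unless a value per kilobase of exon is named, and errors are SD over n = 4 libraries or the SE of a log2 fold change. Marker genes were checked against the tissue labels. A hepatocyte list summed to 398984 to 450821 CPM in control liver, and a sensory neuron list to 1233 to 2226 CPM in control DRG against at most 17.6 CPM in control cord. Lumbar cord control 1 and lumbar cord treated 1 held at most 0.258 CPM of the central myelin gene MOG, where the other 22 cord libraries held at least 330.0 CPM, and their Schwann cell list summed to 29958 and 21828 CPM. Several results are also given without these 2 libraries, and the other lumbar cord values include them. Cervical DRG treated 4 had 23% of its counts on mitochondrial genes, against at most 13.4% in the other DRG libraries.

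In control animals 30 of the 36 carriers reached a mean of 1 CPM in at least 1 tissue. Of these, 12 were highest in liver, 12 in cord and 6 in DRG. The mean in the highest organ was at least 10 times that in the next organ for 7 genes in liver, 4 in cord and 1 in DRG. The 2 highest organs were nearly level for SLCO5A1 (ratio 1.001), SLC47A1 (1.009) and SLCO2A1 (1.027). The cord means include lumbar control 1, which held almost no MOG, 228 CPM of SLC47A1 and 42.6 CPM of SLC22A2. SLC22A2 was counted among the 4 at a ratio of 12.2, and these counts were not redone without that library. On CPM of total counts, without TMM scaling, the highest organ was liver for 8, cord for 14 and DRG for 8 genes, since SLC10A7 and SLCO5A1 then stood highest in DRG and SLC22A5 and SLCO1A2 in cord. The other 6 carriers stayed under 1 CPM in controls of every tissue. These were SLC22A12, the urate carrier of the kidney (highest mean 0.30 CPM, lumbar DRG), SLC22A13 (0.492 CPM, liver), SLC22A14 (0.706 CPM, lumbar cord), SLC22A16 (0.424 CPM, thoracic cord), SLC22A31 (0.085 CPM, thoracic cord) and SLCO6A1 (0.0108 CPM, cervical cord).

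**Figure D1:**
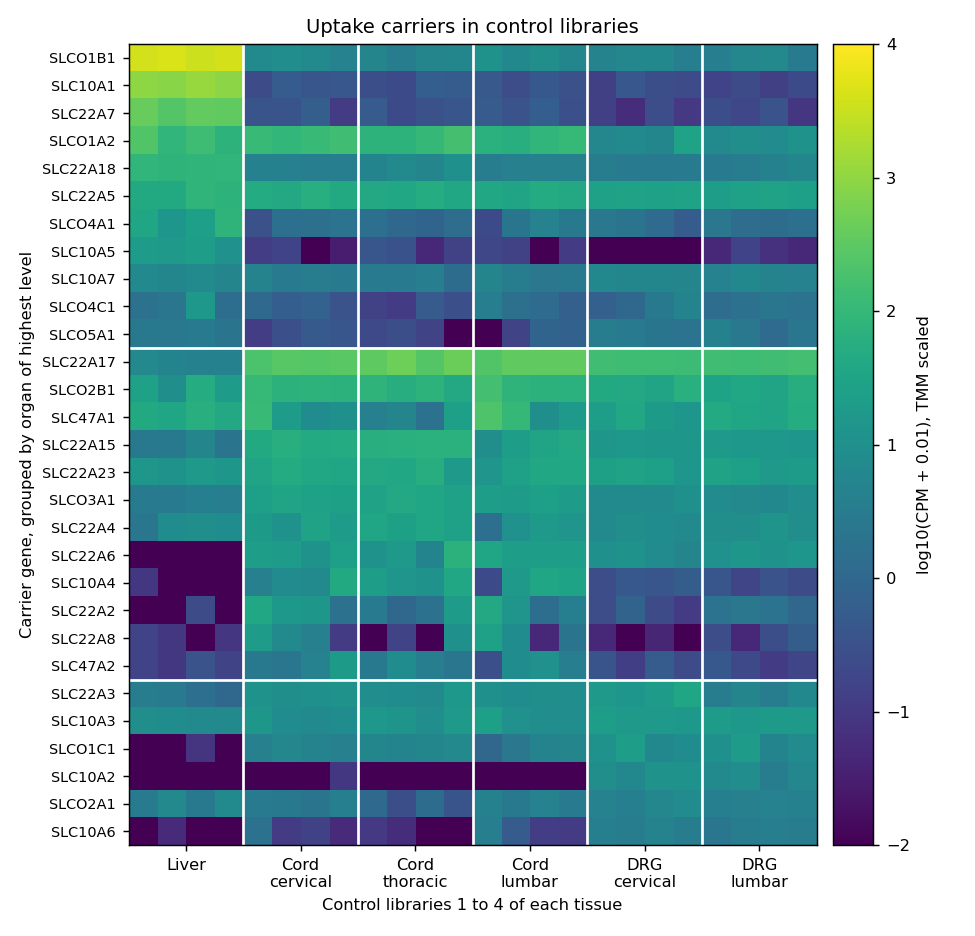
Each row is one of 29 carriers that reached 1 CPM, each column a control library, and the colour is log10(CPM + 0.01), with white lines between tissues and between genes highest in liver, cord and DRG. The top 3 rows are brightest in the 4 liver libraries, SLC22A17 is bright in all cord and DRG libraries, and SLC10A2 is well above the darkest colours only in DRG.

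The liver carried the highest levels of the whole set, and the hepatocyte uptake carriers SLC10A1 and SLCO1B1 made up most of it. SLC10A1, the sodium-coupled carrier that draws bile acids from portal blood (chromosome 7, 134442766 to 134458721, minus strand, build Macaca_fascicularis_5.0), had 934, 843, 1175 and 896 CPM in the 4 control livers. Every control cord and DRG library held less than 1 CPM of it. SLCO1B1, the organic anion transporting polypeptide that takes statins and bilirubin conjugates into hepatocytes, had 4030 ± 480 CPM in liver and between 2.97 and 11.8 CPM in control cord and DRG. SLC22A7, the organic anion transporter OAT2 (chromosome 4, 127261515 to 127269055, minus strand), had 340 ± 69.2 CPM in liver and less than 1 CPM in control cord and DRG.

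Per kilobase of exon, the scale on which genes can be ranked against each other, control liver was led by SLC10A1 at 598 CPM per kb, followed by SLCO1B1 at 529, and SLC22A7 was at 131. SLC10A1 made up 34.9% of the summed level of all 36 carriers on that scale and SLCO1B1 30.9%, and their SDs of 91.5 and 63.0 CPM per kb leave the order of these 2 within the spread between animals. The SLCO1B1 value has a limit of its own. Its row spans 384.9 kb of chromosome 11 (21561575 to 21946504) with 43 exon blocks, and 10 distinct block lengths each occur 3 times in it. SLCO1B1 was the only carrier with any block length seen 3 or more times. The RefSeq gene order of a newer assembly of the species lists SLCO1B3 and a pseudogene (LOC102136968) next to SLCO1B1, and SLCO1B3 was not analysed here. Reads of SLCO1B1 and of neighbouring copies may therefore be counted in 1 row and cannot be told apart.

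Other carriers highest in liver stood far lower. SLC22A18, an imprinted gene whose substrate is unsettled, had 85.1 ± 3.15 CPM in liver against 3.15 to 7 CPM (group means) in cord and DRG. SLC10A5, an orphan member of the bile acid family, had 17.6 ± 4.85 CPM in liver and at most 0.22 CPM (group mean) elsewhere. SLCO4A1, a thyroid hormone and organic anion carrier, varied widely among control livers, with 35.4, 14.2, 24.9 and 80.1 CPM. SLCO4C1, known from the kidney, had 1.79, 2.29, 15.9 and 1.48 CPM, so that its liver mean rested on liver control 3. SLCO1A2, the OATP1A2 of brain capillaries and of the bile duct, was high in liver and cord and low in DRG, at 136 ± 72 CPM in liver, 116 ± 22.5 CPM in cervical cord and 11.7 ± 10.9 CPM in cervical DRG.

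The spinal cord was led by SLC22A17, the receptor for lipocalin-2 and siderophore-bound iron (chromosome 7, 87066785 to 87075439, minus strand). Its control means were 256 ± 43.7 CPM in cervical, 372 ± 102 CPM in thoracic and 315 ± 53.5 CPM in lumbar cord, with 138 ± 7.90 CPM in cervical DRG and 5.14 ± 1.18 CPM in liver. On the per-kilobase scale SLC22A17 made up 28.8%, 38.4% and 32.8% of the summed carrier level in cervical, thoracic and lumbar cord, and 27.9% and 29.4% in cervical and lumbar DRG. In cervical cord the next carrier was SLC22A5, the carnitine transporter OCTN2, at 14.8 CPM per kb against 56.2 for SLC22A17. SLC22A15, a carrier of zwitterions, had 49.6 ± 6.00 CPM in cervical cord, 15.2 ± 0.413 CPM in cervical DRG and 3.21 ± 1.55 CPM in liver. SLCO3A1, a prostaglandin and thyroid hormone carrier, showed the same order, with 27.5 ± 3.61, 7.95 ± 1.61 and 3.40 ± 0.454 CPM.

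A second group of cord carriers was high in a few libraries and low in the rest. SLC47A1, the cation exporter MATE1 (chromosome 16, 19543067 to 19589296, plus strand), had 228, 99.3, 9.65 and 18 CPM in the lumbar controls and 125, 131, 8.54 and 19.6 CPM in the lumbar treated libraries. In cervical cord it had 111, 20.3, 8.31 and 10.3 CPM in controls and 65.5, 10.7, 17 and 6.08 CPM in treated libraries, and in thoracic cord it stayed between 1.69 and 24.5 CPM. The 2 lumbar libraries without MOG lay among the highest, but lumbar control 2 and lumbar treated 2, which did hold MOG, were in the same range. SLC22A8 (OAT3), SLC22A2 (OCT2) and SLC10A6, a sulfated steroid carrier, followed the same libraries. Of the 6 cord libraries highest in SLC47A1, out of 24, 5 were among the 6 highest for SLC22A8, 5 for SLC22A2 and 6 for SLC10A6.

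The same libraries were high in peripheral and meningeal markers. The 6 cord libraries with the highest Schwann cell list included 6 of the top 6 for SLC10A6, and the 6 with the highest meningeal and fibroblast list shared 4 with each of SLC47A1, SLC22A8, SLC22A2 and SLC10A6. Without the 2 libraries that lack MOG, SLC47A1 still ran from 1.69 to 130.8 CPM over the other 22 cord libraries, and SLC22A8 ran from 0 to 20.6 CPM with a median of 2.06 CPM. The part of tissue composition in these levels was not tested, and in whole tissue fewer cells of a type and less RNA per cell cannot be told apart.

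SLC10A4, an orphan of the bile acid family found on synaptic vesicles of cholinergic and monoaminergic neurons (chromosome 5, 48580363 to 48586613, plus strand), had the opposite pattern. It had 0.213 CPM in lumbar control 1 and 0.322 CPM in lumbar treated 1, the libraries without MOG, and 4.15 to 47.2 CPM in the other 22 cord libraries. Control DRG held a mean of 0.421 CPM in the cervical and 0.278 CPM in the lumbar region, and control liver 0.0204 CPM. Of the 6 cord libraries highest in SLC10A4, 4 were among the 6 highest in the motor and cholinergic neuron list and 0 among the 6 highest in SLC47A1. SLC47A2, the second cation exporter of the family, shared 4 of its top 6 libraries with SLC10A4 and none with its neighbour on chromosome 16, SLC47A1.

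**Figure D2:**
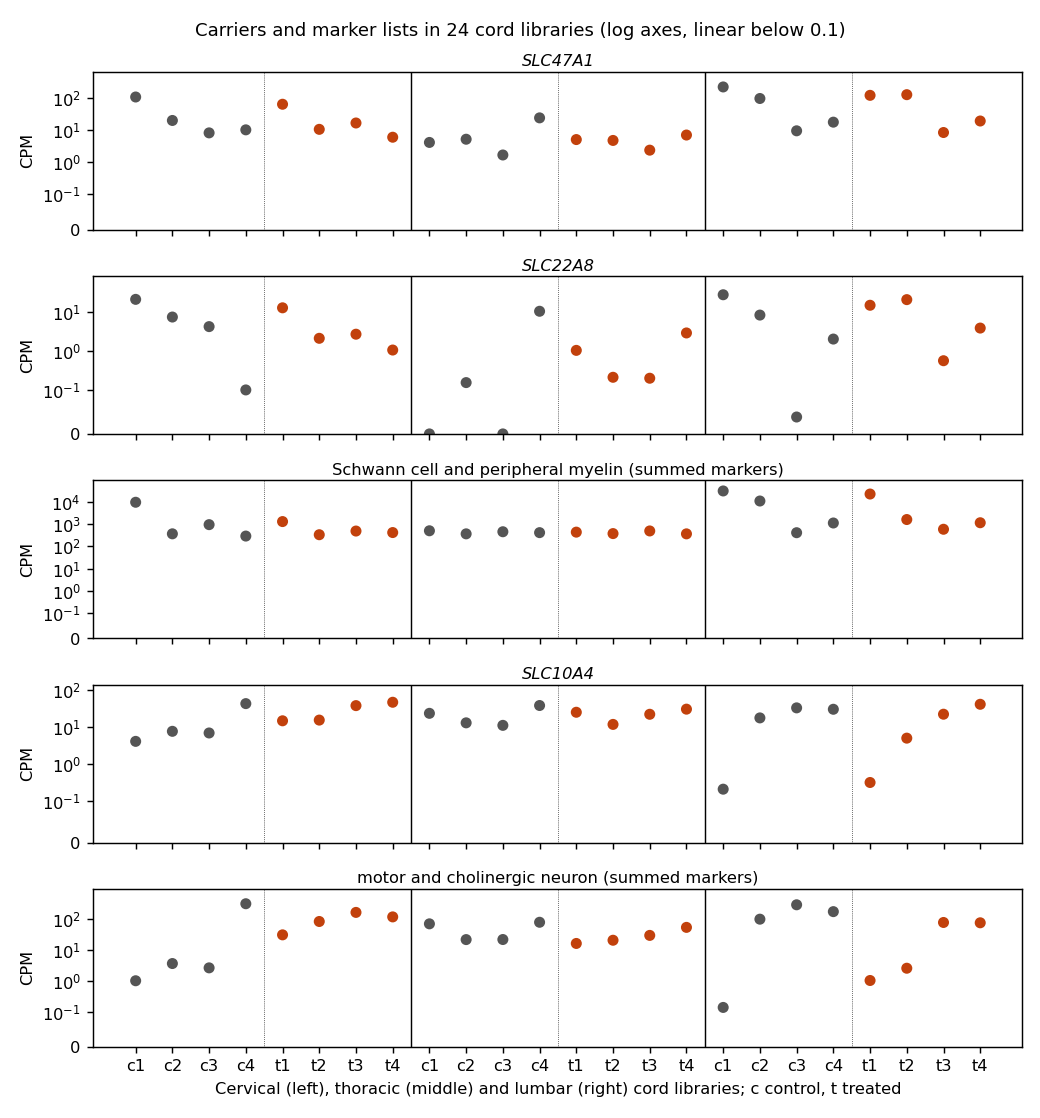
The 5 panels show CPM on log axes (linear below 0.1) in the 24 cord libraries, by region and with control (c, grey) and treated (t, orange) libraries 1 to 4, for SLC47A1, SLC22A8 and SLC10A4 and for the summed Schwann cell and cholinergic neuron lists. SLC47A1 and SLC22A8 are highest in lumbar c1 and high in lumbar t1 and t2 and cervical c1, and SLC10A4 is lowest in lumbar c1 and t1.

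In the DRG the carrier that stood out was SLC10A2, the sodium-coupled bile acid carrier best known from the ileum (chromosome 17, 85616301 to 85638637, minus strand). It had 8.99, 6.30, 12.2 and 11.6 CPM in the cervical controls and 7.03, 8.81, 3.23 and 6.00 CPM in the lumbar controls. It had no count in the 4 control livers and at most 0.0816 CPM in any control cord library, so that DRG did not overlap liver or cord. SLC10A6 had 3.93 ± 0.649 CPM in cervical and 3.13 ± 0.633 CPM in lumbar DRG, where control libraries ran from 2.25 to 4.84 CPM, and 0.0106 CPM in liver. Control cord averaged 0.519, 0.0356 and 1.1 CPM in its 3 regions, and lumbar cord control 1, at 3.62 CPM, lay inside the DRG range. SLCO1C1, the thyroxine carrier of brain capillaries, had 12.2 ± 6.92 CPM in cervical DRG, 4.75 ± 0.896 CPM in cervical cord and 0.0188 CPM in liver. SLC10A3, an orphan of the family, differed less, with 17.6 ± 2.51 CPM in cervical DRG, 9.72 ± 3.38 CPM in cervical cord and 7.90 ± 0.942 CPM in liver.

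The organ differences were tested in 1 edgeR quasi-likelihood fit of the 12 control libraries of liver, cervical cord and cervical DRG, with the animal as a block and Benjamini-Hochberg adjustment over 14607 genes, 31 of them carriers. Liver against cord called 23 carriers, 9 higher and 14 lower in liver. This has to be read against the 72.7% of all genes that passed there, 33.1% higher and 39.6% lower. Liver against DRG called 21 carriers, 9 higher and 12 lower, against 73% of all genes (33.7% and 39.3%). DRG against cord called 21 carriers, 7 higher and 14 lower in DRG, against 44.6% of all genes (21.9% and 22.6%). The median log2 fold change of the carriers in DRG against cord was -0.64, and that of all genes 0.02.

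SLC10A1 was 11.23 ± 0.38 higher in liver than in cord on the log2 scale (edgeR adjusted p = 2.701e-07) and 11.79 ± 0.38 higher than in DRG. SLC22A7 was 9.90 ± 0.45 and 11.32 ± 0.48 higher in liver, SLCO1B1 9.13 ± 0.29 and 9.52 ± 0.30, SLCO4A1 4.64 ± 0.83 and 4.28 ± 0.82, and SLC22A18 4.33 ± 0.12 and 4.64 ± 0.12. SLC10A5 was 7.96 ± 0.79 higher in liver than in cord and, with no count in DRG, at least 1359-fold higher than there, taking 3 counts over a group of 4 libraries as the floor. SLCO1A2 was 3.66 ± 0.61 higher in liver than in DRG, and SLCO5A1, an orphan member, 2.93 ± 0.46 higher than in cord, a call lost for the lumbar cord (2.64, adjusted p = 0.0561).

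The carriers lower in liver included several that the liver barely held. SLC22A6, the organic anion transporter OAT1, had no count in control liver and was at least 668-fold lower there than in cord and at least 289-fold lower than in DRG. SLC10A2 had none either and was at least 326-fold lower than in DRG. SLC10A4 had 2 counts in control liver, and its level in cord was 769 times as high (95% counting interval 213 to 6350). SLCO1C1 also had 2 counts, with a ratio of 236 (65.3 to 1960) for cord and 613 (170 to 5070) for DRG, and SLC10A6 had 1, with a ratio of 395 (70.7 to 15600) for DRG. These intervals use counts pooled over a group and cover counting error alone, not the spread between animals. For SLC10A4, cervical cord control 4 held 43.4 CPM, where the other cervical controls held 4.15 to 7.75 CPM. SLC22A2 was -8.04 ± 1.08 in liver against cord, SLC22A17 -5.74 ± 0.23, SLC47A2 -5.05 ± 0.71, SLC22A15 -4.09 ± 0.28 and SLCO3A1 -3.10 ± 0.18. Against DRG, SLC22A17 was -4.87 ± 0.22 in liver, SLC22A3 -3.39 ± 0.46, SLC22A15 -2.42 ± 0.26 and SLCO3A1 -1.34 ± 0.17.

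Between DRG and cord, 5 of the differences named here passed in all 13 alternatives. SLC10A2 was 8.99 ± 0.92 higher in DRG (edgeR adjusted p = 0.001641), while SLC10A4 was -4.62 ± 0.65, SLC47A2 -4.16 ± 0.65, SLCO1A2 -3.46 ± 0.59 and SLCO3A1 -1.76 ± 0.17. SLC22A2 was -5.35 ± 0.87 in DRG against cord, but -2.52 (adjusted p = 0.103) for the lumbar regions and -3.12 (0.0774) in treated libraries. SLC10A6, 4.23 ± 0.96 higher in DRG, lost its call without control animal 2 (adjusted p = 0.108), without control animal 3 (0.0777) and for the lumbar regions (2.96, 0.0776). SLCO5A1 (3.06 ± 0.46), SLC10A3 (0.93 ± 0.15) and SLC22A15 (-1.67 ± 0.25) lost theirs for the lumbar regions, where SLCO5A1 was at 2.83 (0.0891) and SLC22A15 at -0.61 (0.312). SLCO1C1 (1.29 ± 0.43), SLCO2A1 (0.96 ± 0.33), SLC10A7 (0.72 ± 0.17), SLC22A4 (-1.24 ± 0.36) and SLC22A6 (-1.17 ± 0.31) lost the call in at least 2 of the 4 fits that each left out 1 control animal.

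The liver comparisons depend on the scaling. Total counts in place of TMM moved the median log2 fold change of all genes from -0.15 to -1.34 in liver against cord and from -0.13 to -1.33 in liver against DRG. The share of called genes that were higher in liver then went from 45.5% to 15.6% and from 46.1% to 15.1%. Carriers called became 25 (8 higher) and 27 (8 higher). All genes called rose as well, from 10624 to 11963 and from 10659 to 11874 of 14607. SLC10A7 changed from 0.74 to -0.45 in liver against cord and passed the threshold both ways. SLC22A5 in liver against DRG went from 0.96, called, to -0.24, not called. The 8 members higher in liver by the widest margins against cord kept their direction under this scaling. Leaving out control animal 2 or control animal 3 lowered the count for DRG against cord to 11 in each case, and the lumbar in place of the cervical regions lowered it to 10. Genes called there were 6509 in the main fit and ran from 3368 to 7821 over the alternatives.

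Between the 2 ganglion regions, SLC22A3 was the only carrier that passed. SLC22A3 (chromosome 4, 10353655 to 10454579, minus strand) encodes OCT3, a low-affinity, high-capacity carrier of monoamines outside the synapse. In the animals that gave both regions, its level went from 16.8 CPM in cervical to 3.49 CPM in lumbar DRG in control animal 1, from 14.5 to 5.44 CPM in control 2, from 20.2 to 3.29 CPM in control 3 and from 33.4 to 6.25 CPM in control 4. In the treated animals with both regions it went from 8.52 to 2.66 CPM and from 50.6 to 16.2 CPM. All 6 animals were lower in the lumbar region, by ratios of 2.67 to 6.13, and the control groups did not overlap. In the limma fit over the 16 DRG libraries with the animal as a random block, SLC22A3 was -1.86 ± 0.28 on the log2 scale in lumbar against cervical DRG (95% interval -2.40 to -1.32, limma adjusted p = 0.009339). It was 1 of 29 carriers tested, where 0.219% of all 14168 genes passed.

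The call for SLC22A3 depended on the pairing of regions by animal. Without an animal term the log2 difference was -1.64 and the limma adjusted p was 0.974. Without control animal 1 the adjusted p was 0.0551, with the difference at -1.80. In control animals alone the difference was -2.20 (limma adjusted p = 0.0438), and in treated animals alone -1.56 (adjusted p = 0.185). Over all 17 alternatives it ran from -2.20 to -1.56, with adjusted p from 0.00475 to 0.974, and 13 kept the call. Some marker lists moved with it. The blood-brain barrier endothelial, the meningeal and fibroblast, and the choroid plexus and ependyma lists were lower in lumbar DRG in 6 of 6 animals. Over all 8 libraries of each region, lumbar and cervical medians were 369 and 434 CPM for the endothelial and 1360 and 2213 CPM for the meningeal list. The sensory neuron, pan-neuronal, cholinergic neuron and satellite glia lists were higher in lumbar DRG in 5 of 6 animals. Of the 5 DRG libraries highest in SLC22A3, 4 were among the 5 highest for each of the endothelial and meningeal lists and 3 for the choroid plexus and ependyma list. Their part in the difference was not tested.

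Other carriers differed between ganglion regions without passing the adjusted threshold. SLC10A2 was lower in the lumbar region in 5 of 6 animals (log2 difference -0.76 ± 0.20, limma adjusted p = 0.1158), and it passed when control animal 2 was left out. SLC22A2 was higher in the lumbar region in 5 of 6 animals, from 0.256 to 1.94 CPM, 0.825 to 2.42 CPM, 0.234 to 1.91 CPM and 0.104 to 0.959 CPM in controls 1 to 4. The exception was treated animal 2, at 9.34 CPM in cervical and 2.02 CPM in lumbar DRG, and SLC22A2 passed when that animal was left out. The other treated animal with both regions was nearly level, at 0.109 and 0.122 CPM. SLC22A2 averaged 0.355 CPM (cervical) and 1.81 CPM (lumbar) in controls. SLCO2B1 (-0.23 ± 0.09) and SLCO1C1 (-0.19 ± 0.13) were lower in the lumbar region in 6 of 6 animals and SLC22A6 (0.44 ± 0.19) higher in 6 of 6. Their smallest log2 differences in an animal were -0.054, -0.076 and 0.094, and the share of all genes with 1 direction in every animal was not computed. SLC10A4, at under 1 CPM, was at -0.60 ± 0.23, and SLC22A2 at 1.58 ± 0.55. In all, 9 carriers had an unadjusted p under 0.05, against 13.8% of all genes.

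**Figure D3:**
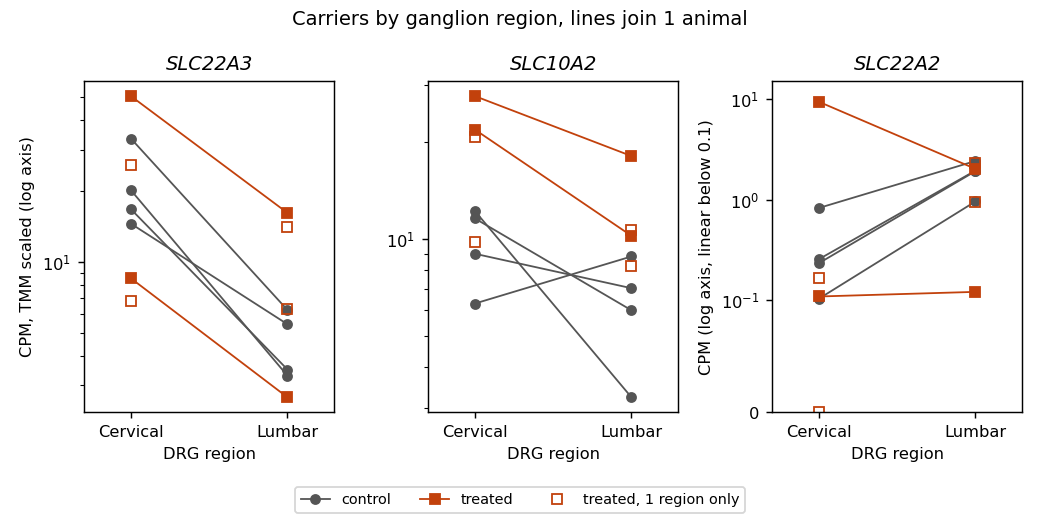
Levels of SLC22A3, SLC10A2 and SLC22A2 are shown in cervical and lumbar DRG on log axes (CPM; linear below 0.1 for SLC22A2), with lines that join the regions of 1 animal, filled symbols for animals with both regions and open symbols for treated animals with 1 region. All 6 lines of SLC22A3 go down, while those of SLC22A2 go up except in treated animal 2.

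Between lumbar and cervical cord no carrier passed, although several differed the same way in every animal. The share of all genes that did so was not computed. The edgeR fit with the animal as a block called 0 of 28 carriers, where 0.0351% of 14238 genes passed, and 7 carriers had an unadjusted p under 0.05, against 20.7% of all genes. SLCO3A1 ran from 24.1 to 32.8 CPM (median 26) in 8 cervical and from 19.5 to 24.8 CPM (median 21.1) in 8 lumbar libraries, and the ranges overlapped only at their edges. It was lower in lumbar cord in 8 of 8 animals, with a log2 difference of -0.28 ± 0.07 (edgeR adjusted p = 0.09881). SLCO1A2 ran from 92.5 to 146 CPM in cervical and from 36.6 to 101.9 CPM in lumbar cord, lower in 8 of 8 animals (-0.59 ± 0.15). SLCO4C1 was higher in lumbar cord in 8 of 8 (1.22 ± 0.30), at a low level of 0.123 to 1.14 CPM against 0.530 to 3.67 CPM. In 1 animal its log2 difference, taken on CPM + 0.1, was only 0.016.

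SLC22A5 (-0.24 ± 0.06) and SLC22A15 (-0.82 ± 0.31) were lower in lumbar cord and SLC10A3 (0.33 ± 0.11) higher, each in 8 of 8 animals. Each had an animal with almost no difference, at -0.0018, -0.0096 and 0.00074 on the log2 scale. SLC47A1 was higher in 7 of 8 animals (1.21 ± 0.46). In the 6 animals with MOG in every cord library, all 7 genes but SLC47A1 differed the same way in 6 of 6, and SLC47A1 in 5 of 6. Over these 6 animals the log2 difference was -0.43 for SLCO1A2, -0.41 for SLC22A15, 1.3 for SLC47A1 and 0.17 for SLC10A3 (edgeR adjusted p = 0.397). DESeq2 on the same design called 7 carriers (SLC22A15, SLC22A5, SLC47A1, SLC47A2, SLCO1A2, SLCO3A1 and SLCO4C1) among 1624 genes. Beside these differences, the Schwann cell list was higher in lumbar cord in 7 of 8 animals, and the central myelin and astrocyte lists were lower in 7 of 8. Their part was not tested.

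In treated against control liver, 0 of 23 carriers tested passed, as did 0% of 12609 genes, and 3 carriers had an unadjusted p under 0.05, against 8.32% of all genes. The median log2 fold change was 0.05 over the carriers and 0.01 over all genes. SLC22A7 had the smallest p: 414, 249, 363 and 335 CPM in controls and 422, 628, 572 and 434 CPM in treated livers. All 4 treated livers lay above the 4 controls, although treated 1 and control 1 were close, and the log2 fold change was 0.60 ± 0.20 (edgeR adjusted p = 0.4636). SLC22A23, an orphan of the family, had 15.1, 11.3, 17.6 and 14.8 CPM in controls and 18.9, 18.6, 24.2 and 18 CPM in treated livers (0.44 ± 0.16). SLCO2A1, the prostaglandin transporter, had 2.73, 6.58, 2.71 and 6.91 CPM in controls and 1.47, 0, 1.20 and 2.14 CPM in treated livers (-2.06 ± 0.87). These 3 were the carriers whose groups did not overlap in liver, against 5.12% of all genes.

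The main uptake carriers of the hepatocyte had overlapping groups. SLC10A1 had 710, 1014, 964 and 801 CPM in treated livers, inside or below the control values, with a log2 fold change of -0.14 ± 0.16. SLCO1B1 had 3362, 3988, 3544 and 4003 CPM (-0.11 ± 0.13) and SLCO2B1 22.1, 9.69, 26.2 and 50.0 CPM (-0.08 ± 0.45). SLC47A1 was at 0.28 ± 0.16, and SLC22A13, under 1 CPM in both groups, at -1.03 ± 0.66. The 95% interval of SLC10A1 ran from -0.45 to 0.17 on the log2 scale. The hepatocyte list summed to 398984 to 450821 CPM in control and 316440 to 345740 CPM in treated livers without overlap, and its part in the carrier values was not tested.

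Genes that work with these carriers in bile acid handling gave no call either. Of the genes for bile acid synthesis and conjugation, 5 of 12 tested had a positive and 7 a negative log2 fold change (median -0.03), where 51.9% of all genes were positive. CYP7A1, the rate-limiting enzyme of bile acid synthesis, was at -0.18 ± 0.47 and CYP7B1 of the alternative pathway at -0.47 ± 0.27. Of the hepatocyte efflux pumps, 7 of 8 were positive (median 0.17), with ABCC4 at 0.36 ± 0.16 and the bile salt export pump ABCB11 at 0.19 ± 0.28. Of the regulators 7 of 11 were positive (median 0.05), with the bile acid receptor NR1H4 at 0.13 ± 0.14, and of the partner carriers and scaffold genes 7 of 7 (median 0.08). No gene of these 4 lists passed the edgeR adjusted threshold.

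In the cord, 0 carriers passed in any region: 0 of 28 in cervical, 0 of 27 in thoracic and 0 of 29 in lumbar cord, and 0 of 31 with the 3 regions of each animal summed, where 0% of all genes passed in each of these 4 fits. The unadjusted p was under 0.05 for 1, 0, 1 and 2 carriers, against 9.53%, 2.33%, 1.74% and 3.49% of all genes. SLC22A4, the ergothioneine carrier OCTN1 (chromosome 6, 131285520 to 131336899, plus strand), had the smallest p in cervical and summed cord. In cervical cord it had 18.2, 11.8, 29.2 and 19.5 CPM in controls and 25.6, 34.5, 35.6 and 35.9 CPM in treated libraries, and in lumbar cord 1.52, 10.9, 17.5 and 13.4 CPM against 17.2, 34.6, 27.3 and 24.2 CPM. In both regions the lowest treated value fell inside the control range and the other 3 lay above it. The log2 fold change was 0.76 ± 0.22 in cervical, 0.35 ± 0.23 in thoracic and 1.33 ± 0.64 in lumbar cord, and 0.76 ± 0.20 over the summed regions (edgeR adjusted p = 0.8584). Without the 2 libraries that lack MOG it was 1.01 in lumbar and 0.62 in summed cord.

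SLC22A5, which adjoins SLC22A4 on chromosome 6, had 31.6 to 59.7 CPM in control and 30.6 to 55.1 CPM in treated libraries of the 3 cord regions, and these groups overlapped. SLCO2A1 was at -0.82 ± 0.33 in summed cord and at -0.85 without the 2 libraries that lack MOG. In lumbar cord it was the only carrier whose groups did not overlap, against 1.71% of all genes, with 4.31, 2.68, 4.55 and 3.00 CPM in controls and 2.40, 1.86, 2.52 and 0.988 CPM in treated libraries. In summed cord SLCO1A2 was at -0.13 ± 0.15, SLCO2B1 at 0.01 ± 0.21, SLCO1C1 at 0.01 ± 0.24 and SLC22A17 at 0.09 ± 0.22. SLC22A8 was at -0.27 ± 0.42 and ran from -0.55 to 0.19 over the alternatives. Summed cord also had SLC22A2 at -0.70 ± 0.35, SLCO1B1 at -0.33 ± 0.28 and SLC22A18 at 0.28 ± 0.23. The median over the carriers was -0.08, against 0.01 over all genes.

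SLC10A4 had treated against control differences of opposite sign by cord region, none of them past the threshold. It was at 1.05 ± 0.51 in cervical cord (15.6 CPM in controls, 29 CPM in treated libraries on average), 0.04 ± 0.42 in thoracic and -0.94 ± 1.25 in lumbar cord, and 0.20 ± 0.28 in the sum. In cervical cord the motor and cholinergic neuron list had a median of 3.14 CPM (1.02 to 302) in controls. Treated libraries there had a median of 97.7 CPM (30.3 to 159). Its control and treated medians were 44.9 and 24.7 CPM in thoracic cord, and 132 and 38.2 CPM in lumbar cord. The lumbar groups each include a library that lacks MOG, and without these 2 SLC10A4 was at 0.235 in the sum. The part of this list was not tested. Other carriers among the 5 of smallest p were SLCO1B1 (-0.64 ± 0.32), SLCO2A1 (-0.71 ± 0.36) and SLC22A18 (0.42 ± 0.22) in cervical cord, and SLC47A2 (0.87 ± 0.60), SLCO1B1 (-0.33 ± 0.30), SLCO4A1 (-0.52 ± 0.47) and SLC22A2 (-0.76 ± 0.82) in thoracic cord. In lumbar cord they were SLCO2A1 (-0.95 ± 0.40), SLC10A6 (-0.79 ± 0.68), SLC47A2 (-1.23 ± 1.14) and SLCO4C1 (-0.47 ± 0.44). Without the 2 libraries that lack MOG, lumbar SLCO2A1 was at -0.94, SLC47A2 at -1.04 and SLCO4C1 at -0.12.

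In the ganglia 0 carriers passed in cervical DRG (0 of 30, 0% of all genes), lumbar DRG (0 of 30, 4.29% of all genes) or over both regions (0 of 31, 0.977% of all genes). The carriers with an unadjusted p under 0.05 numbered 4, 7 and 4, against 7.35%, 22.6% and 11.5% of all genes. SLC22A5 (chromosome 6, 131362146 to 131387760, plus strand) had 27.9, 28.3, 27.2 and 28.7 CPM in cervical controls and 37.7, 33.4, 35.2 and 31.8 CPM in cervical treated libraries. In lumbar DRG it had 22.9, 27.1, 28.4 and 24.4 CPM in controls and 35.6, 35, 28.43 and 30.6 CPM in treated libraries. The groups did not overlap in either region, in lumbar DRG by a narrow gap between control 3 and treated 3. The log2 fold change over both regions was 0.35 ± 0.12 (limma adjusted p = 0.2082), and it passed when treated animal 4, the source of cervical DRG treated 4, was left out (adjusted p = 0.0306) and with edgeR and no animal term (0.02), in 2 of 17 alternatives that ran up to 0.762. SLC22A5 was the only carrier without overlap in cervical DRG, where 5.11% of all genes had none, and 1 of 4 in lumbar DRG, where 15.4% had none.

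SLC10A2 had 9.75, 27.7, 21.8 and 20.7 CPM in treated cervical DRG and 8.21, 18, 10.6 and 10.2 CPM in treated lumbar DRG, beside control values of 6.30 to 12.2 and 3.23 to 8.81 CPM. In each region the lowest treated library lay among the controls and the other 3 above them. The log2 fold change was 1.08 ± 0.33 in cervical, 0.96 ± 0.29 in lumbar (edgeR adjusted p = 0.1019) and 0.90 ± 0.40 over both regions. In lumbar DRG SLC10A2 passed with DESeq2 (adjusted p = 0.0177), which called 1728 genes there against 612 with edgeR. It also passed without lumbar treated 1 (edgeR adjusted p = 0.0301), and the 15 alternatives ran up to 0.254. SLC22A23 was at -0.64 ± 0.21 in cervical, -0.62 ± 0.22 in lumbar and -0.61 ± 0.27 over both regions, with 14.5 to 29.3 CPM in controls and 10.3 to 19.1 CPM in treated libraries, which overlapped. SLC22A6 was at 0.81 ± 0.39, but its highest value, 47.9 CPM, was in cervical DRG treated 4, the library with the high mitochondrial share. Without treated animal 4 the log2 fold change over both regions was 0.55 for SLC22A6, 0.89 for SLC10A2 and -0.56 for SLC22A23.

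SLC22A17 had 143, 135, 147 and 163 CPM in lumbar controls and 111, 124, 118 and 114 CPM in lumbar treated libraries, without overlap. Its log2 fold change there was -0.31 ± 0.09 (edgeR adjusted p = 0.09459). Of 15 alternatives, up to an adjusted p of 0.237, SLC22A17 passed with DESeq2 alone (0.0166), which called 1728 genes there. In cervical DRG it had 149, 140, 134 and 131 CPM against 128, 124, 112 and 289 CPM, the last again in treated 4, and over both regions it was at -0.03 ± 0.21, or -0.25 without treated animal 4. SLCO3A1 (-0.52 ± 0.20) and SLCO4A1 (-0.85 ± 0.33) were the other carriers without overlap in lumbar DRG, and over both regions they were at -0.28 ± 0.20 and -0.96 ± 0.45. In cervical DRG SLCO5A1 was at 0.64 ± 0.24 and SLC22A4 at 0.55 ± 0.23, and SLC10A4 was at -0.37 ± 0.49 over both regions, at under 1 CPM. Beside these values, the pan-neuronal list summed to 9443 to 13632 CPM in lumbar controls and 4392 to 6112 CPM in lumbar treated libraries, and to 4726 to 12047 against 4589 to 5622 CPM in cervical DRG. The sensory neuron list overlapped in lumbar DRG, at 1621 to 2226 against 954 to 2682 CPM. Their part in the carrier values was not tested.

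**Figure D4:**
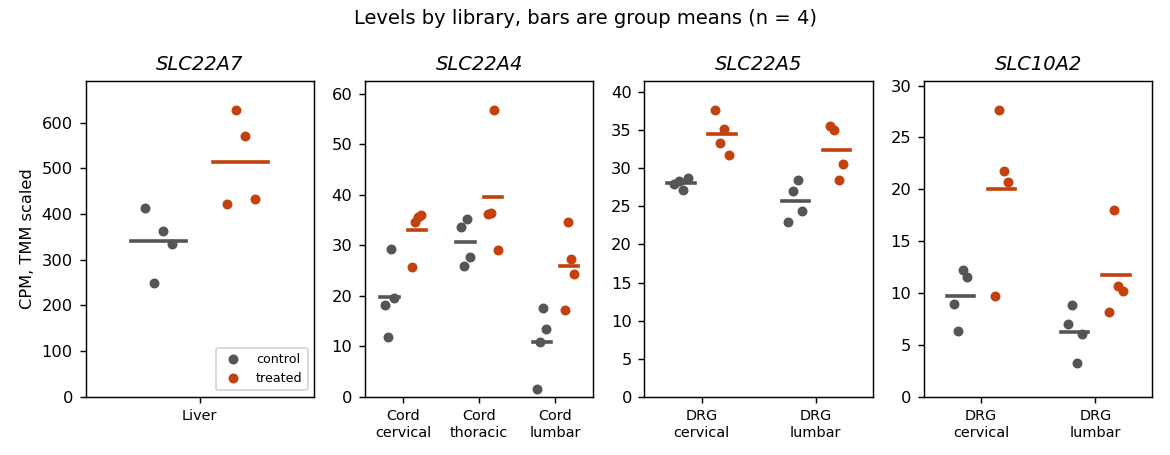
CPM in each control (grey) and treated (orange) library is shown for SLC22A7 in liver, SLC22A4 in the 3 cord regions, and SLC22A5 and SLC10A2 in both DRG regions, with bars at the group means (n = 4) and axes from 0. The treated means lie above the control means in each panel, and of the genes drawn SLC22A7 and SLC22A5 have groups without overlap.

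**Figure D5:**
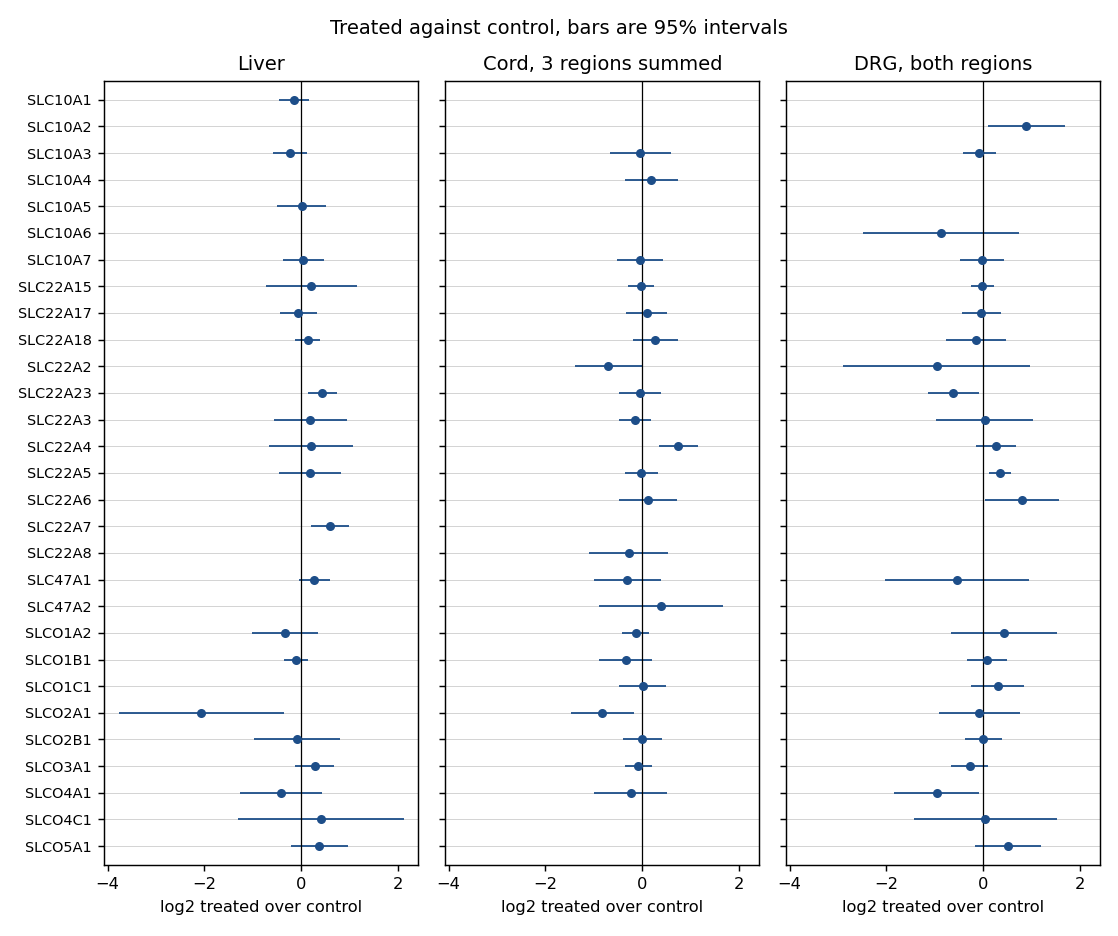
Points are log2 fold changes of treated over control, for carriers with a group mean of at least 1 CPM in liver, in the 3 cord regions summed and in both DRG regions. Bars are 1.96 SE to each side, a normal approximation that is narrow for so few animals, so a bar clear of 0 is not a call. Most bars cross 0, and none of the carriers passed the adjusted threshold.

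The difference of the treatment effect between regions was tested as an interaction term. It called 0 of 29 carriers in cord and 0 of 31 in DRG, as it did 0% of all genes in both organs, and 2 carriers in each organ had an unadjusted p under 0.05, against 2.63% and 2.9% of all genes. In cord the smallest p was that of SLC22A6, whose lumbar effect was -0.68 ± 0.27 relative to the cervical one on the log2 scale. In DRG it was that of SLC22A2, at -2.59 ± 1.12, where treated animal 2 held 9.34 CPM in the cervical region. SLC22A4 was at 0.77 ± 0.55 in cord, at 0.13 there without the 2 animals with a library that lacks MOG, and -0.42 ± 0.19 in DRG. The other carriers of smallest p were SLC22A7 (-1.35 ± 0.61), SLC10A4 (-1.62 ± 1.20) and SLC22A17 (-0.31 ± 0.23) in cord, and SLCO3A1 (-0.34 ± 0.19), SLC22A12 (-1.55 ± 0.84) and SLC10A6 (1.46 ± 0.82) in DRG. Levels of SLC22A7 in cord were low, with medians of 0.50 CPM in cervical and 0.37 CPM in lumbar libraries. Those of SLC22A12 in DRG were lower, at 0.14 and 0.12 CPM, so both values rest on few counts.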

How the data were processed

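Raw counts per gene name were deposited by the authors. They were made with featureCounts 1.4.6-p1 on Ensembl 94 of Macaca_fascicularis 5.0, counting each mate as 1 read and setting no strand, per the file headers. The submitters' processing notes name STAR 2.5.3a for alignment. The exonic gene length, another deposited value, gave levels per kilobase. No carrier shared exonic bases with another gene. Groups follow the labels.

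From the counts, TMM-scaled CPM and fits over all genes were computed in R 4.3.3 with edgeR 4.0.16 (quasi-likelihood, robust, filterByExpr, sex as a covariate). The organ fit and the fit of lumbar against cervical cord had the animal as a block in place of sex. Where libraries of an animal were only partly shared, and for the interaction term in cord, limma 3.58.1 (voom, duplicateCorrelation, statmod 1.5.0) was used. DESeq2 1.42.0 was an alternative. A call is a Benjamini-Hochberg adjusted p under 0.05 over all genes tested. In simulated counts, 74% of genes changed by 1 on the log2 scale and 100% of those changed by 2 were recovered for treated against control liver (12713 genes). For lumbar against cervical DRG the shares were 98% and 100% (14274 genes). Every simulated gene had the same dispersion, and no animal or sex effect was put in. The shares therefore do not give the power for the carriers, and a missing call is not evidence of no change.

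Named carriers are those called, up to 8 per direction by size. For region differences below the threshold, and for treatment and interaction, the 5 of smallest p were added, as were fixed carriers of known role. One carrier of the set is counted with the others but not reported here by name. Members and lists were chosen with earlier results of these data known. Each group has 4 libraries. Carriers under 1 CPM rest on few counts per library, and so do the log2 fold changes given for some of them. Alternatives left out a library or animal, changed the filter, scaling, tool or covariates, or exchanged regions.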

Additional observations from a re-analysis of the deposited data

Results flagged for a closer look

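In each group of 4 libraries, a carrier level was singled out where 1 library lay so far from the other 3 that the gap to its nearest neighbour, as a share of the group's whole range, passed Dixon's 95% critical value. Of 265 groups of 4 libraries tested over the carriers, 40 (15.1%) met this, where chance gives about 1 in 20. Over all genes with a group mean of at least 1 CPM, the share was 8.78% of 152029 groups. All values are TMM-scaled CPM and the range of the other 3 libraries follows each.

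In liver, control 3 had 5.5 CPM of SLC22A15 (others 2.07 to 2.65) and 15.9 CPM of the organic anion carrier SLCO4C1 (others 1.48 to 2.29). Liver control 1 was low in SLC22A4 at 2.24 CPM (others 8.06 to 9.01). Treated liver 1 had 109 CPM of the carnitine carrier SLC22A5 (others 52.8 to 57.8), and treated liver 3 had 24.2 CPM of SLC22A23 (others 18 to 18.9).

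In cervical cord, control 1 was high in SLC10A3 at 14.7 CPM (others 7.36 to 8.49), in SLC47A1 at 111 CPM (others 8.31 to 20.3) and in SLCO2B1 at 104 CPM (others 70.7 to 75). Control 4 was high in SLC10A4 at 43.4 CPM (others 4.15 to 7.75) and in SLC47A2 at 18.6 CPM (others 2.25 to 4.51). Treated 4 was high in SLC10A3 at 15.4 CPM (others 6.58 to 7.97) and in SLC22A17 at 391 CPM (others 266 to 281). Treated 1 was high in the organic ion carriers SLC22A2 at 27.5 CPM (others 2.39 to 6.48) and SLC22A8 at 12.6 CPM (others 1.06 to 2.67) and low in SLC22A4 at 25.6 CPM (others 34.5 to 35.9).

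In thoracic cord, 4 of the 5 values came from control 4. It had 20.1 CPM of SLC22A2 (others 0.994 to 2.98), 15.8 CPM of SLC22A3 (others 7.47 to 8.5), 10.3 CPM of SLC22A8 (others 0 to 0.157) and 24.5 CPM of SLC47A1 (others 1.69 to 5.26). Control 2 was low in SLCO1B1 at 3.56 CPM (others 5.26 to 5.6).

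In lumbar cord, control 1 and treated 1 are the libraries with almost no MOG. Control 1 was high in SLC10A3 at 23.8 CPM (others 8.51 to 11), in SLC10A6 at 3.62 CPM (others 0.106 to 0.555), in SLC22A6 at 35.6 CPM (others 22.2 to 22.4) and in SLCO2B1 at 157 CPM (others 68.1 to 82). It was low in SLC22A17 at 236 CPM (others 337 to 350) and in SLC22A18 at 3.4 CPM (others 4.13 to 4.18). Treated 1 was low in SLC22A15 at 11.7 CPM (others 37 to 41.4) and in SLCO1A2 at 36.6 CPM (others 75.9 to 80.5). Treated 4 was high in SLC22A17 at 583 CPM (others 237 to 255) and low in SLC22A5 at 30.6 CPM (others 44 to 46.7). Treated 2 was high in SLC22A3 at 10.1 CPM (others 7.45 to 7.81).

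In cervical DRG, treated 4 was high in SLC10A3 at 29.1 CPM (others 12.8 to 15.6), in SLC22A17 at 289 CPM (others 112 to 128) and in SLC22A6 at 47.9 CPM (others 8.58 to 13). This is the DRG library with the highest share of mitochondrial counts. Treated 2 was high in SLC22A2 at 9.34 CPM (others 0 to 0.166) and in SLC47A1 at 46.5 CPM (others 3.67 to 10.9). Control 1 had 21.3 CPM of SLC10A3 (others 15.9 to 16.6), and control 4 had 28.1 CPM of SLCO1A2 (others 5.66 to 7.28). In lumbar DRG, control 3 had 12.4 CPM of SLC22A4 (others 8.99 to 9.03), and treated 1 was low in SLC22A15 at 11.9 CPM (others 16.8 to 17.2).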

How the results depend on the processing

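Across 15 comparisons, 1801 alternative values of 122 carrier results were computed, of which 31 turned in sign, 1 of them for a result that had passed. In liver, SLCO2B1 in treated against control (-0.08) was 0.02076 with limma and ran from -0.32 to 0.31 with 1 library left out. In summed cord, SLCO1C1 (0.01) was -0.002185 with limma over 24 libraries and -0.02777 without the 2 libraries that lack MOG, and ran from -0.17 to 0.10 with 1 animal left out. SLCO2B1 there (0.01) was -0.003823 with median-ratio size factors, -0.00384 with DESeq2 and -0.01185 with no sex term, and ran from -0.10 to 0.21 with 1 animal left out. SLC22A8 was 0.19 with limma over 24 libraries and ran from -0.55 to 0.12, SLC22A17 from -0.12 to 0.21 and SLC10A4 from -0.01166 to 0.40. With 1 library left out, SLC22A2 in thoracic cord ran from -1.27 to 0.53, and in lumbar cord SLC10A6 ran from -1.25 to 0.13 and SLC47A2 from -1.93 to 0.22. SLC22A17 over both DRG regions (-0.03) was 0.07191 with edgeR on counts summed per animal and ran from -0.25 to 0.06086. SLC22A2 in lumbar against cervical DRG was -1.08 in treated animals alone. SLC22A4 in DRG against cord, called at -1.24 for the cervical regions, was 0.29 for the lumbar ones. The cause was not tested for any of these.

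The count of carriers called in treated against control lumbar DRG was 2 with DESeq2 (SLC10A2 and SLC22A17) and 0 to 1 with 1 library left out. DESeq2 called 1728 genes there, where edgeR called 612, so these 2 calls came with many more calls among all genes. Over both DRG regions the carrier count was 3 with edgeR and no animal term (SLC10A2, SLC22A23 and SLC22A5) and 0 to 1 with 1 animal left out. That setting treated libraries of the same animal as independent. The share of all genes called with it is not given, so these 3 cannot be read as a result about the carriers. In lumbar against cervical cord the carrier count was 7 with DESeq2, which called 1624 genes there against 5 with edgeR. In lumbar against cervical DRG it was 0 with no animal term in limma, 0 with edgeR and no animal term and 0 in treated animals alone, and 0 to 2 with 1 animal left out. In DRG against cord it was 10 for the lumbar regions and 11 to 18 with 1 animal left out. Genes called moved as well: 612 in treated lumbar DRG, with 18 to 1728 over the alternatives, and 142 over both DRG regions, with 3 to 967. In DRG against cord they were 6509, with 3368 to 7821.

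Control and treated libraries share replicate numbers in the labels. Same-numbered libraries deviated together in some pairs only: the correlations of their deviations ran from 0.05 to 0.22 in liver, from -0.39 to 0.71 in thoracic cord and from 0.053 to 0.93 in lumbar cord, the tissue with the highest mean (0.57, against -0.11 for other numbers), and no tissue had all 4 pairs over 0.1. The lumbar value of 0.93 is that of pair 1, the libraries that lack MOG. Correlations in the other tissues ran from -0.25 to 0.35 in cervical cord, from -0.23 to 0.053 in cervical DRG and from -0.16 to 0.13 in lumbar DRG. Each control liver correlated best with the treated liver of its own number (4 of 4). In each cord region 2 control libraries did so, and in each DRG region 0. Same-numbered libraries also share a sex, which was not removed from these deviations. With the replicate number as a block, 0 carriers were called in each of the 8 treated against control fits, and genes called were 206 in lumbar DRG and 52 over both DRG regions. The limits are 4 animals per group, shared animals between tissues, whole tissue and unstranded counts.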

Other observations

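SLC22A8 (chromosome 14, 11241707 to 11265200) and SLC22A6 (chromosome 14, 11273832 to 11281385) lie side by side and encode the organic anion transporters OAT3 and OAT1. Both had their highest control means in cord and little or none in liver, at 0.0815 CPM for SLC22A8 and 0 for SLC22A6. In control DRG, SLC22A6 had 8.66 CPM in the cervical and 13.1 CPM in the lumbar region, where SLC22A8 had 0.0175 and 0.283 CPM. In cord both were high in thoracic control 4 (10.3 CPM for SLC22A8 and 71.3 CPM for SLC22A6) and in lumbar control 1 (27 and 35.6 CPM). The difference between the genes was not tested.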
